A study of Homo sapiens with 12 samples.

Results

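SERPINB2 and the plasminogen activator system were described as 7 genes, SERPINB2, SERPINE2, PLAU, PLAUR, PLAT, ANXA2 and S100A10, among the 58307 named rows of a count table. The members were chosen by name, as the rows whose gene symbol equals 1 of the 7, and no symbol occurred in more than 1 row. SERPINB2 was put in the set with its response to rapamycin in these libraries already known. Its rapamycin changes are therefore given as a description without a test, and members are counted over the other 6 in the rapamycin comparisons. The other members, and the gene lists below, were also chosen with earlier results of these data known. Their counts beside the shares of all genes are therefore a description and not a test of the set.

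The table held 12 polyA RNA-seq libraries of human melanoma cells labelled A375 and SK-MEL-28, established lines from cutaneous melanoma. Cells had been incubated with etoposide, a topoisomerase II poison, or with etoposide + rapamycin, an inhibitor of the mTOR kinase that induces autophagy. There were 3 libraries in each of 4 groups, A375 etoposide, A375 etoposide + rapamycin, SK-MEL-28 etoposide and SK-MEL-28 etoposide + rapamycin. All groups had etoposide in common, and cells without etoposide or with rapamycin alone were not analysed here. Each cell line is 1 culture lineage, so a difference between the lines and a difference between their cultures cannot be told apart. The doses and incubation times of the sequenced cultures were not used here.

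Plasminogen, an inactive zymogen made mainly by the liver, is cut to the protease plasmin by the urokinase-type activator encoded by PLAU or the tissue-type activator encoded by PLAT. Urokinase acts at the cell surface bound to its receptor PLAUR, and the heterotetramer of annexin A2 (ANXA2) and S100A10 binds plasminogen and the tissue-type activator there. Serpins inhibit the activators, SERPINE2 (protease nexin-1) as a secreted inhibitor of thrombin and both activators, and SERPINB2 (PAI-2) as an inhibitor of urokinase that is kept largely inside the cell. In melanoma the system is known for its part in pericellular proteolysis and invasion.

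Library totals ran from 28189501 to 32499337 counts. Replicates correlated at r = 0.983 to 0.986 over 20101 genes (log2 CPM, where CPM is the count scaled to library size), libraries of one line with different treatment at 0.977 to 0.981, and libraries of different lines at 0.958 to 0.970. Of the melanocyte lineage markers, SOX10 (166 to 578 CPM), S100B (56.7 to 106 CPM) and MITF (12.1 to 29.7 CPM) were present in all libraries. The pigment cell genes MLANA (0.357 to 1.37 CPM), PMEL (1.54 to 2.99 CPM) and DCT (0.202 to 2.16 CPM) were low in all 12, and TYR (0 to 0.196 CPM) was at or near 0. SK-MEL-28 is commonly described as a line that expresses MLANA, PMEL and TYR, so in this respect the data go against the label, and its libraries are called by their label below. Of the 12 markers of other cells, KRT5, KRT1, CD3E, CD14, PTPRC and CDH5 stayed under 1 CPM. KRT14 (4.84 to 9.98 CPM), PECAM1 (1.27 to 6.09 CPM), VWF (1.74 to 3.23 CPM) and DCN (0.838 to 6.84 CPM) were low. The fibroblast markers PDGFRB (11.2 to 21.2 CPM) and LUM (3.92 to 28.9 CPM) reached levels in the range of MITF. With rapamycin DCT, DCN and LUM were called lower in A375, and LUM and PECAM1 in the libraries labelled SK-MEL-28. DCT went from means of 21 to 6.33 counts in A375 and passed the filter on low counts only through the etoposide libraries. MITF (-0.51 and -0.50 in the 2 lines) and S100B in A375 (-0.58) were lower at the adjusted p alone. DCT, DCN, LUM, SOX10, PMEL, KRT14 and PECAM1 were called between the lines in at least 1 treatment, and the part of these markers in the results was not tested. In bulk RNA, fewer cells of a kind and less RNA per cell cannot be told apart.

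SERPINB2, on chromosome 18 (GRCh38, chr18:63871692-63903888, forward strand, 8 exons), was read at levels that differed with both cell line and treatment. In A375 it stood at 19.4, 21.2 and 21.0 CPM in the etoposide libraries (592, 617 and 598 counts). With rapamycin added it stood at 75.4, 74.7 and 66.7 CPM (2155, 2223 and 1989 counts). All 3 libraries with rapamycin were above all 3 without it, and the log2 fold change was 1.82 (SE 0.0678), a 3.54-fold difference. Where the label was SK-MEL-28 the gene was close to its lower end, at 2.29, 2.48 and 2.94 CPM with etoposide (70, 75 and 97 counts). With rapamycin these libraries held 7.61, 6.18 and 8.31 CPM (236, 173 and 256 counts). The groups again did not overlap, and the log2 fold change was 1.51 (SE 0.168), a 2.86-fold difference. The difference between these log2 fold changes, SK-MEL-28 minus A375, was -0.30 (SE 0.158). Since SERPINB2 was chosen with its response known, none of these values was tested. Another GENCODE gene overlaps SERPINB2 on the same strand, and how shared reads were assigned is not given in the sources used here.

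**Figure D1:**
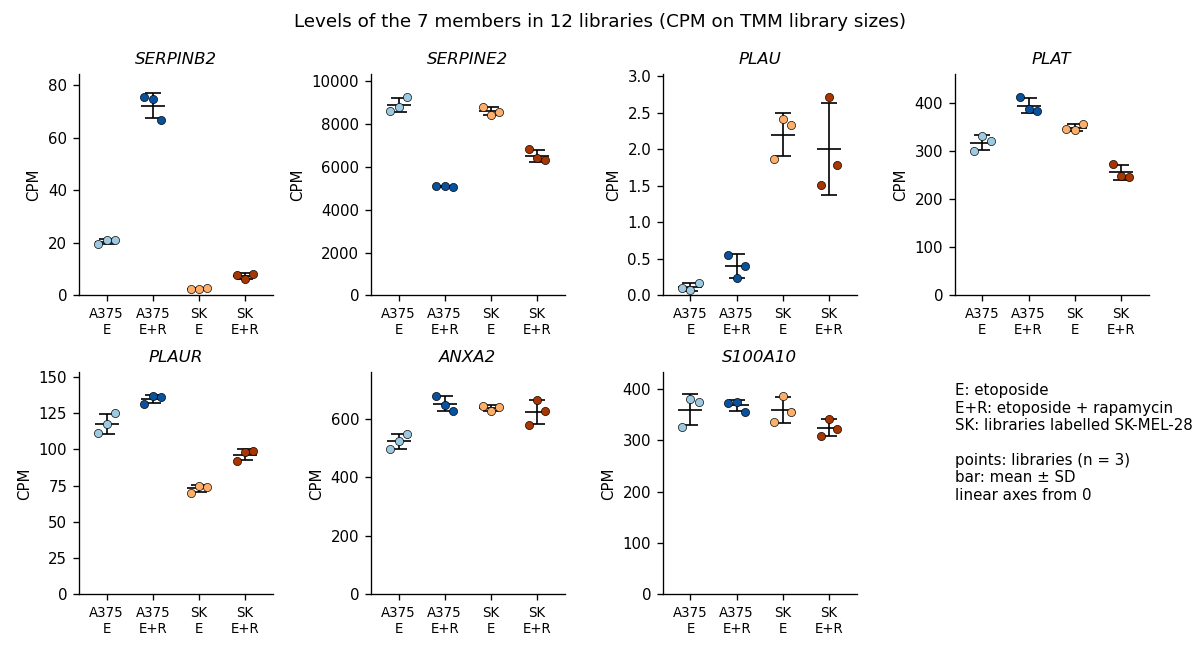
CPM of the 7 members in each of the 12 libraries (points), with the mean and SD of each group of 3, on linear axes from 0. SERPINB2 was at 20.5 and 72.3 CPM in A375 and at 2.57 and 7.37 CPM in the libraries labelled SK-MEL-28, without and with rapamycin, while SERPINE2 ran the other way, from 8885 to 5100 and from 8599 to 6522 CPM.

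The bases before the start of SERPINB2 are shown because they hold TGANTCA, a motif found before the starts of 3 members. It was not the most shared of the motifs searched, as given below. The window was the 250 bases before the transcription start in RefSeq (GRCh38.p14, chr18:63887455-63887704, forward strand). It lies inside the span of the GENCODE gene given above, which takes in transcripts that start farther upstream, and overlaps none of its exons. Capitals mark TGANTCA, the letters known to be bound by AP-1 factors, at position -102 from the start, and TATAAA, which general transcription factors recognize, at position -30.
SERPINB2: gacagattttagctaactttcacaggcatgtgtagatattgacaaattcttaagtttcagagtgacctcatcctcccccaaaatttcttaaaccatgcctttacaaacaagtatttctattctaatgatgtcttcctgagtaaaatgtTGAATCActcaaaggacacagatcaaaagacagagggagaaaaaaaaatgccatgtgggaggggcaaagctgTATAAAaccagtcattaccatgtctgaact

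TGANTCA was also found before the starts of PLAUR, at position -186, and ANXA2, at position -127. Each is shown with the bases around it, with TGANTCA in capitals, at chr19:43670338-43670366 for PLAUR and chr15:60398096-60398124 for ANXA2, both on the reverse strand, with that of PLAUR inside, and that of ANXA2 partly inside, an exon that some GENCODE transcripts of the gene use.
PLAUR: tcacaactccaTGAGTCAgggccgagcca
ANXA2: gcgggccggggTGAGTCAcccctgacttg

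RefSeq windows were matched for 6 of the 7 members, with 2 windows each for SERPINE2 and PLAU and none for PLAT. TGANTCA was in 6.57% of all 35116 windows of this length, TATAAA in 10.7%, TGACGTCA in 1.65%, CCAAT in 32.0% and GGGCGG in 42.6%, searched on both strands. TGACGTCA was in no window of a member, and TATAAA was also in that of ANXA2, at -31. GGGCGG was in windows of ANXA2, PLAU, S100A10 and SERPINE2, more members than TGANTCA, and CCAAT in windows of PLAU and SERPINE2. A match gives the letters and no more, and neither binding nor an effect on a level was measured.

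SERPINE2, the other serpin of the set (chr2:223975045-224039318, reverse strand), was the most abundant member per length in every group. Its A375 libraries held 8597, 8808 and 9249 CPM with etoposide and 5110, 5120 and 5070 CPM with etoposide + rapamycin. It fell with rapamycin, with a log2 fold change of -0.80 (SE 0.0367, adjusted p = 5.72e-08). All adjusted p-values here come from the quasi-likelihood test of edgeR, adjusted by Benjamini-Hochberg over all genes tested. The libraries labelled SK-MEL-28 held 8810, 8434 and 8553 CPM with etoposide and 6830, 6409 and 6326 CPM with rapamycin. The log2 fold change there was -0.40 (SE 0.033, adjusted p = 3.94e-06), which passed the adjusted p of 0.05 and not the fold change of 1.5. In both lines every library with rapamycin was below every library without it. The fall was smaller in the libraries labelled SK-MEL-28, by 0.40 on the log2 scale (SE 0.0502, adjusted p of the interaction = 0.000198).

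PLAU, which encodes urokinase (chr10:73909177-73917496, forward strand), was near the limit of detection in A375. Etoposide libraries held 3, 2 and 5 counts (0.0982, 0.0687 and 0.175 CPM) and those with rapamycin 16, 7 and 12 counts (0.560, 0.235 and 0.402 CPM). The groups did not overlap, but with group totals of 10 and 35 counts PLAU did not pass the filter on low counts in this comparison. With every gene of at least 1 count tested in A375 alone its log2 fold change was 1.78 (SE 0.597, adjusted p = 0.111). A single fit of all 12 libraries, which PLAU entered through the libraries labelled SK-MEL-28, gave 1.77 (SE 0.493). PLAU in the libraries labelled SK-MEL-28 was at 1.86, 2.41 and 2.34 CPM with etoposide and at 1.52, 2.71 and 1.79 CPM with rapamycin. Those groups overlapped, with a log2 fold change of -0.14 (SE 0.253, adjusted p = 0.753). The difference between the lines was -1.91 (SE 0.58, adjusted p = 0.0657), or -1.92 (adjusted p = 0.130) with every gene of at least 1 count tested. PLAU overlaps the antisense gene C10orf55, whose own row held 0 to 5 counts a library, and whether the counting used strand is not given in the sources used here.

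PLAT, the tissue-type activator (chr8:42174718-42207709, reverse strand), was far more abundant than PLAU in all groups. It was the only member tested that passed the adjusted p in opposite directions in the lines. In A375 it was at 301, 332 and 323 CPM with etoposide and at 413, 388 and 385 CPM with rapamycin. The log2 fold change was 0.32 (SE 0.0491, adjusted p = 0.000489), a 1.25-fold difference under the fold threshold. In the libraries labelled SK-MEL-28 it was at 347, 344 and 357 CPM with etoposide and at 275, 248 and 247 CPM with rapamycin. Here the log2 fold change was -0.45 (SE 0.0535, adjusted p = 7.90e-05), also under the fold threshold. Groups did not overlap in either line, and the interaction was -0.76 (SE 0.0716, adjusted p = 1.54e-05).

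PLAUR, the urokinase receptor (chr19:43646095-43670547, reverse strand), was higher with rapamycin in both lines by small amounts. A375 libraries held 111, 117 and 125 CPM with etoposide and 131, 137 and 136 CPM with rapamycin, a log2 fold change of 0.20 (SE 0.0507, adjusted p = 0.0112). Libraries labelled SK-MEL-28 held 70.1, 74.8 and 74.0 CPM with etoposide and 91.9, 97.9 and 98.8 CPM with rapamycin, a log2 fold change of 0.40 (SE 0.0515, adjusted p = 0.000164). All libraries with rapamycin were above those without it within each line, and neither fold change reached 1.5. The difference between the lines, 0.21 (SE 0.0735), did not pass the test (adjusted p = 0.118).

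ANXA2 (chr15:60347134-60402883, reverse strand), the surface partner that carries the plasminogen receptor complex, was at 496, 523 and 547 CPM in A375 with etoposide and at 676, 647 and 626 CPM with rapamycin. Its log2 fold change was 0.32 (SE 0.0478, adjusted p = 0.000374), without overlap of the groups. In the libraries labelled SK-MEL-28 it was at 644, 624 and 639 CPM and at 579, 662 and 624 CPM, overlapping groups with a log2 fold change of -0.03 (SE 0.0509, adjusted p = 0.696). The interaction was -0.35 (SE 0.0709, adjusted p = 0.00872). The processed pseudogenes of ANXA2, which share reads with it, were listed at 0.105 to 0.515 CPM (ANXA2P1), 0.456 to 1.29 CPM (ANXA2P2) and 0 (ANXA2P3), and adding their counts to ANXA2 changed none of its calls.

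S100A10 (chr1:151982915-151993859, reverse strand), the light chain that pairs with annexin A2, had overlapping groups in both lines. It was at 326, 380 and 374 CPM and then at 373, 375.2 and 356 CPM in A375, a log2 fold change of 0.04 (SE 0.0576, adjusted p = 0.679). It was at 335, 386 and 356 CPM and then at 309, 342 and 322 CPM in the libraries labelled SK-MEL-28, a log2 fold change of -0.15 (SE 0.0594, adjusted p = 0.103), which lay under 0.05 in 3 of 15 alternatives. The interaction was -0.18 (SE 0.0875, adjusted p = 0.267).

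**Figure D2:**
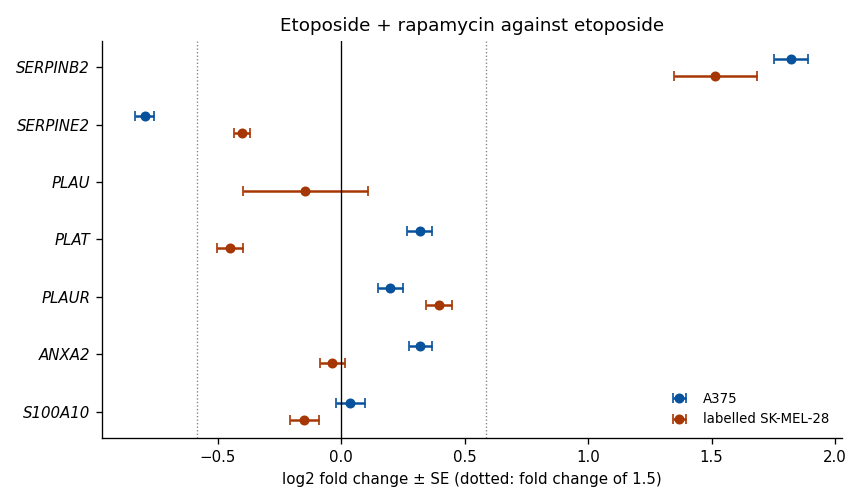
log2 fold changes of the members, etoposide + rapamycin against etoposide, with their SE, in A375 and in the libraries labelled SK-MEL-28, with dotted lines at a fold change of 1.5. SERPINB2 (1.82 and 1.51) lay right of both lines, SERPINE2 in A375 (-0.80) left of them, and PLAT on opposite sides of 0 (0.32 and -0.45). PLAU has no A375 point because it did not pass the filter there.

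Of the 6 members counted, 5 were tested in A375 and 1, SERPINE2, was called lower, where calls required both a fold change above 1.5 and an adjusted p below 0.05. Of all 18844 genes tested 5.89% were called, 582 higher and 527 lower (52.5% higher, or 41.6% when libraries were scaled to their totals). Without the fold threshold 4 members passed, SERPINE2, PLAUR, PLAT and ANXA2, against 28.1% of all genes. In the libraries labelled SK-MEL-28 edgeR called 0 of 6 members, against 4.99% of 18897 genes, and DESeq2 also called 0. At an unadjusted p under 0.05 there were 4 members, of which 0 had a fold change over 1.5. Without the fold threshold 3 passed, SERPINE2, PLAUR and PLAT, against 19.0% of all genes. The difference between the lines passed for 3 of 6 members, SERPINE2, PLAT and ANXA2, against 5.62% of 20101 genes. The p-values measure the spread among 3 libraries a group, which the study describes as biological replicates. Because members were chosen with earlier results of these data known, the counts beside the shares of all genes do not test the set.

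Some members also differed in level between the lines, compared within each treatment. With etoposide, SERPINB2 was lower in the libraries labelled SK-MEL-28 than in A375 by 2.99 on the log2 scale (log2 fold change -2.99, SE 0.124, adjusted p = 1.57e-09), a 7.95-fold difference. PLAU stood at 10 counts in the 3 A375 libraries together and at 207 in the others (log2 fold change 4.23, SE 0.391), and it passed the filter on low counts only through the group where it was high. With every gene of at least 1 count tested, the adjusted p of PLAU was 3.67e-05. PLAUR was lower (-0.69, SE 0.0589, adjusted p = 1.46e-06). These 3 of 7 members were called, 2 of 6 without PLAU, against 13% of 19025 genes. ANXA2 passed the adjusted p alone (0.28, adjusted p = 0.000534), so that 4 members passed without the fold threshold, against 31.7% of genes. SERPINE2 (-0.05, adjusted p = 0.462), PLAT (0.14, adjusted p = 0.0545) and S100A10 (-0.00, adjusted p = 0.982) did not pass, and PLAT lay under 0.05 in 7 of 15 alternatives.

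With etoposide + rapamycin the same comparison used the other 6 libraries. SERPINB2 was again lower in those labelled SK-MEL-28 (-3.29, SE 0.0949, adjusted p = 1.89e-11), a 9.81-fold difference. PLAU differed by 2.31 (SE 0.376), from 35 to 178 counts in all, and had again passed the filter through the group where it was high. Its adjusted p was 0.00146 with every gene of at least 1 count tested. PLAT was lower (-0.63, SE 0.0508, adjusted p = 4.66e-07). These 3 of 7 members were called, 2 of 6 without PLAU, against 14.9% of 18817 genes. PLAUR (-0.49, adjusted p = 2.65e-06), SERPINE2 (0.35, adjusted p = 2.26e-06) and S100A10 (-0.19, adjusted p = 0.00580) passed the adjusted p alone, giving 6 of 7 against 40.4% of genes. ANXA2 did not pass (-0.07, adjusted p = 0.309). These line comparisons use the same libraries as the rapamycin comparisons and are not independent of them. The values hold for the labels as given.

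**Figure D3:**
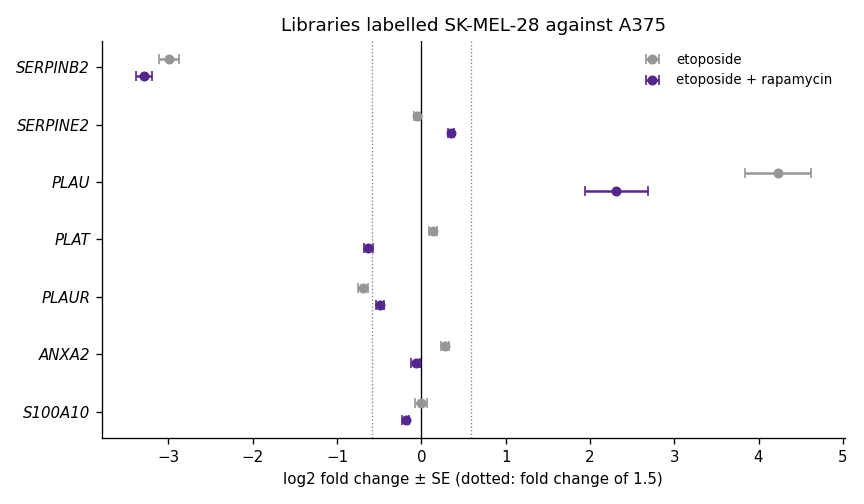
log2 fold changes of the members, libraries labelled SK-MEL-28 against A375, with their SE, with etoposide (grey) and with etoposide + rapamycin (purple), and dotted lines at a fold change of 1.5. SERPINB2 (-2.99 and -3.29) and PLAU (4.23 and 2.31) lay farthest from 0, on opposite sides, and PLAU rests on 10 and 35 counts in A375.

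Per kilobase of the canonical transcript, a scale on which genes can be set side by side, the order in A375 with etoposide was SERPINE2 (3991 ± 150 CPM per kb, SD, n = 3), S100A10 (536 ± 44.5), ANXA2 (336 ± 16.2), PLAT (104 ± 5.18), PLAUR (86.1 ± 5.07), SERPINB2 (10.8 ± 0.518) and PLAU (0.0487 ± 0.0235). The same order held in the SK-MEL-28 etoposide libraries, with SERPINE2 at 3863 ± 86.3, S100A10 at 535 ± 38.4, ANXA2 at 409 ± 6.67, PLAT at 114 ± 2.26, PLAUR at 53.3 ± 1.87, SERPINB2 at 1.35 ± 0.177 and PLAU at 0.941 ± 0.127 CPM per kb. No neighbours in either order were closer than the sum of their SDs. With rapamycin SERPINB2 stood at 37.9 ± 2.54 and 3.86 ± 0.572 CPM per kb and SERPINE2 at 2291 ± 11.9 and 2930 ± 122, so that the secreted inhibitor stayed far above the intracellular one in every group.

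The genes whose levels followed SERPINB2 most closely over the 12 libraries, among 12713 genes with a mean of at least 100 counts, were B3GAT1 (r = 0.994), ADGRA3 (r = 0.994), FOSL1 (r = 0.994), FZD1 (r = 0.993) and EGR2 (r = 0.992), by Pearson's r on log2 CPM. The 12 points share line and treatment, so r describes 4 group levels more than 12 separate values, and it carries no test. FOSL1, which encodes an AP-1 subunit, was at 152 ± 5.53 and 247 ± 7.12 CPM in A375 and at 70.6 ± 6.61 and 105 ± 8.95 CPM in the libraries labelled SK-MEL-28, without and with rapamycin. EGR2, an immediate early transcription factor, was at 11.9 ± 0.884 and 30.7 ± 2.41 CPM and at 2.31 ± 0.433 and 5.79 ± 0.629 CPM. The other genes had group means, in the same order, of 17.9, 29.9, 6.28 and 10.9 CPM for B3GAT1. ADGRA3 had 101, 133, 68.1 and 82.9 CPM, and FZD1 57.1, 87.2, 32.9 and 43.2 CPM.

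**Figure D4:**
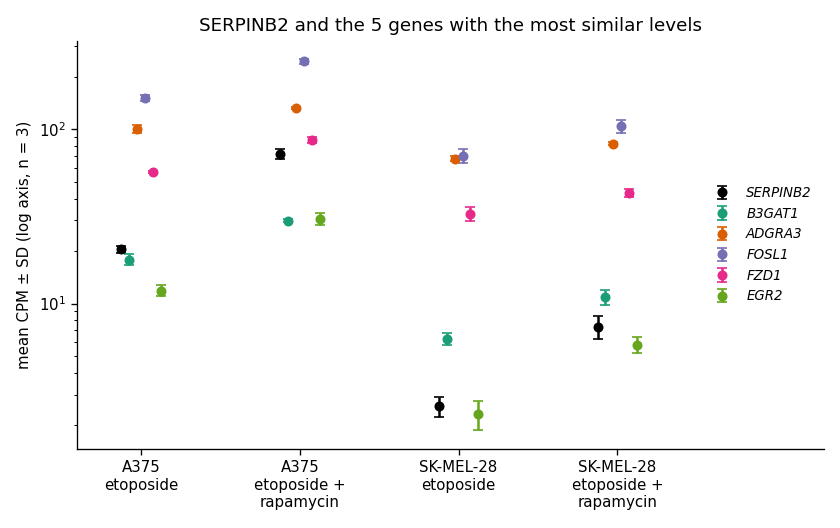
Mean CPM and SD (n = 3, log axis) of SERPINB2 and of the 5 genes whose levels were most like it over the 12 libraries, by group. All 6 were highest in A375 with rapamycin and lowest in the SK-MEL-28 etoposide libraries.

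Around the members, 56 other genes of the plasminogen system were followed in lists. These were plasminogen and its receptors, other inhibitors, activating proteases, clearance and cell surface partners, and plasmin targets, the last together with metalloproteinase inhibitors. PLG itself, the gene for plasminogen, had 1 count in all 12 libraries together. In A375, 52 were tested, 8 were higher and 13 lower at the adjusted p, and 2 and 3 were called, where 28.1% of all genes passed and 5.89% were called. Their median log2 fold change was -0.01, against -0.01 over all genes. In the libraries labelled SK-MEL-28, 53 were tested, 8 were higher and 16 lower at the adjusted p, and 2 and 6 were called, where 19.0% of all genes passed and 4.99% were called. Their median was -0.10, against 0.01 over all genes. The interaction passed for 3 higher and 8 lower of 55, where 5.62% of all genes passed. The lists too were chosen with earlier results known, so these counts are a description.

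Among the inhibitors, A2M, the broad protease trap alpha-2-macroglobulin, fell in both lines, from 193 ± 6.90 to 60.9 ± 2.51 CPM in A375 (log2 fold change -1.66) and from 126 ± 2.47 to 50.6 ± 7.33 CPM in the libraries labelled SK-MEL-28 (-1.32). SERPINA5 (protein C inhibitor) was called lower in A375 (-0.74, adjusted p = 0.000164). In the libraries labelled SK-MEL-28 it was lower under the fold threshold (-0.48, adjusted p = 0.00564). SERPINI1 (neuroserpin, an inhibitor of the tissue-type activator) was called lower in the libraries labelled SK-MEL-28 (-1.13, adjusted p = 0.00129). In A375 it differed by -0.61 (adjusted p = 0.0796). Neither interaction passed (adjusted p = 0.314 for SERPINA5 and 0.390 for SERPINI1). SERPINF2, which inhibits plasmin itself, was at 2.00 ± 0.411 and 2.52 ± 0.883 CPM in A375 (adjusted p = 0.404). No activating protease was called (6 to 7 of 7 tested), and CTSB, a lysosomal protease, had the highest mean count of them (372 ± 11.1 and 310 ± 6.66 CPM in A375, log2 fold change -0.26, adjusted p = 0.000782), followed by CTSL (-0.31, adjusted p = 0.000712).

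Among the clearance and surface genes, VLDLR, an endocytic receptor of serpin complexes, fell in A375 (-1.18, SE 0.102) and in the libraries labelled SK-MEL-28 (-1.76, SE 0.0972), with an interaction of -0.57 (adjusted p = 0.0252). The integrin subunits ITGB3 and ITGA3 had the highest mean counts, over all groups, of the genes of this list that were not called. ITGB3 differed by -0.35 (SE 0.0539, adjusted p = 0.000441) in A375 and by -0.49 (SE 0.0774, adjusted p = 0.000782) in the libraries labelled SK-MEL-28, and ITGA3 by 0.04 and -0.32, an interaction of -0.35 (adjusted p = 0.00517). THBS1, a matrix protein that binds plasminogen, rose in A375 (0.72, SE 0.0521) and was higher by 0.56 (SE 0.0432) in the libraries labelled SK-MEL-28. Of the plasminogen receptors none was called within a line, and ENO1 and AHNAK had the highest mean counts (not scaled to length). ENO1 was lower in A375 (-0.12) and in the libraries labelled SK-MEL-28 (-0.395). AHNAK was higher in A375 (0.39, overlapping groups) and lower in the libraries labelled SK-MEL-28 (-0.35). All of these passed the adjusted p alone, with interactions of -0.26 for ENO1 and -0.73 for AHNAK (adjusted p = 0.00487 and 0.0158).

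Plasmin targets moved in both directions. MMP9, a gelatinase made as a zymogen, rose from 9.47 ± 0.702 to 32.5 ± 2.79 CPM in A375 (1.78, SE 0.0967) and by 0.66 (SE 0.196) in the libraries labelled SK-MEL-28, an interaction of -1.12 (adjusted p = 0.00393). FN1, fibronectin, rose from 73.7 ± 4.24 to 192 ± 18.8 CPM in the libraries labelled SK-MEL-28 (1.38, SE 0.0719) and was at 940 ± 71.2 and 872 ± 23.5 CPM in A375, an interaction of 1.49 (adjusted p = 2.35e-07). The collagenase MMP1 (-0.66) and the stromelysin MMP3 (-2.37) fell in the libraries labelled SK-MEL-28. MMP13, also called there, had means of 19.3 and 2 counts and passed the filter only through the etoposide libraries. The list of targets also held metalloproteinase inhibitors. Of its genes not called, the inhibitors TIMP3 and TIMP1 had the highest mean counts. TIMP3 was higher with rapamycin in both lines (0.31 and 0.37, both past the adjusted p), and TIMP1 differed by -0.23 in A375 (adjusted p = 0.00213) and by -0.04 in the libraries labelled SK-MEL-28 (adjusted p = 0.736).

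**Figure D5:**
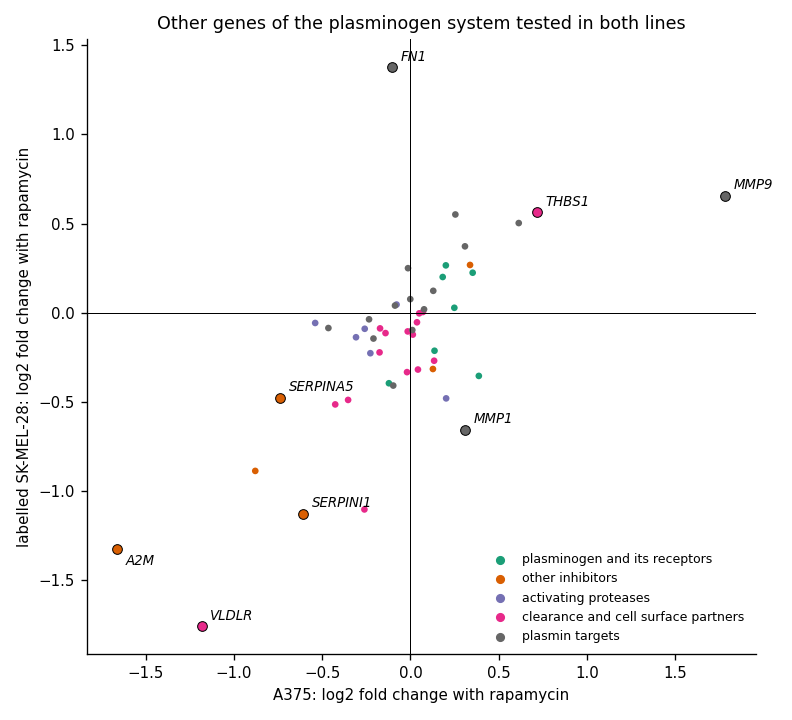
log2 fold change with rapamycin in A375 (x axis) and in the libraries labelled SK-MEL-28 (y axis) of the plasminogen system genes tested in both, coloured by list, with the genes called in either line outlined and named. A2M and VLDLR lay low in both, MMP9 and THBS1 high in both, and FN1 high on the y axis alone (1.38 against -0.10).

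Other clade B serpins, the family of SERPINB2, were mostly silent, with 4 of 12 tested. SERPINB7 fell in the libraries labelled SK-MEL-28 (-0.71, adjusted p = 0.00809). SERPINB8 and SERPINB6, with the highest mean counts, were at 68.7 ± 2.13 and 59.1 ± 3.63 CPM in A375 with etoposide and were not called. SERPINB10, the neighbour of SERPINB2, whose row belongs to the same assembled locus, had 0 to 6 counts a library. Of 24 other annexin and S100 genes 18 were tested, and 1 was called higher and 2 lower in A375, 0 and 4 in the libraries labelled SK-MEL-28, where 5.89% and 4.99% of all genes were called. S100A3 fell in both lines (-0.89 and -1.19). ANXA8, also called in both, went from means of 33.7 to 10.7 and 43.7 to 8.67 counts, so that its fold rests on few counts with rapamycin. It is among the genes counted as called lower, but passed the filter on low counts only through the etoposide libraries. S100A2 was called higher in A375 (0.65), and S100P (-1.75) and ANXA9 (-0.61) were called lower in the libraries labelled SK-MEL-28. ANXA9 was also lower in A375 (-0.58, adjusted p = 0.00857), just under the fold threshold. S100P differed there by -0.59 (adjusted p = 0.184), and the interaction passed for neither S100P nor ANXA9. Of those not called, S100A6 had the highest mean count (log2 fold changes 0.08 and -0.07), followed by S100A4 (-0.33 and -0.26, both past the adjusted p and under the fold threshold).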

How the data were processed

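RNA was sequenced from 12 libraries, 3 in each of 4 groups. The authors used HISAT2 2.2.0 for alignment, Samtools 1.3.1 for conversion and StringTie 2.1.4 with Ensembl release 90 (GRCh38) for expression. The deposited table holds whole-number counts per gene, not normalized. The step from StringTie's estimates to counts is not given in the sources used here, and a read pair may count more than once. The 5 rows without a gene name (at most 0.00529% of a library) were left out.

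Groups came from the labels, which give no batch. Genes passing filterByExpr (minimum count 10) were tested with edgeR 4.0.16 (quasi-likelihood, TMM, R 4.3.3) and Benjamini-Hochberg adjustment over all genes, within the libraries compared, or over all 12 for the interaction. SE is the log2 fold change over the square root of F. CPM used TMM library sizes. Positions and lengths are from GENCODE 44, windows from RefSeq. DESeq2 1.42.0, other scalings and filters, halved counts and left-out libraries were alternatives. The code was tested on simulated data. Members and lists were chosen with earlier results of these data known. Outside the members, genes were named if called with rapamycin, or as the 2 others of a list with the highest mean count, and 1 of these is not reported here.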

Additional observations from a re-analysis of the deposited data

Results flagged for a closer look

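For 3 members the change with rapamycin differed between the lines by the interaction test over all 12 libraries (edgeR, adjusted p under 0.05), as log2 fold change in the libraries labelled SK-MEL-28 minus that in A375. PLAT differed by -0.76, being higher with rapamycin in 3 of 3 A375 libraries and lower in 3 of 3 labelled SK-MEL-28. SERPINE2 differed by 0.40, being lower with rapamycin in all libraries of both lines, and less so in those labelled SK-MEL-28. ANXA2 differed by -0.35, with groups that overlapped only in the libraries labelled SK-MEL-28. Of all genes tested 5.62% passed this test.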

How the results depend on the processing

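Of 496 tested member values recomputed under the alternatives, 483 kept their direction and stayed called or not called (adjusted p and fold change together), 12 changed sign and 1 was newly called, the PLAU interaction without A375 etoposide + rapamycin replicate 2 (-2.18, adjusted p = 0.0410). The other 51 had no test, the rapamycin values of SERPINB2, each within 1 SE of that reported, and the PLAU interaction with DESeq2, whose adjusted p was NA. None of the sign changes was of a called value. PLAU in A375 with rapamycin is outside all of these counts, since the main fit did not test it. Taking the adjusted p alone, PLAT between the lines with etoposide crossed 0.05 in 7 of 15 alternatives (lowest 0.0120), S100A10 with rapamycin in SK-MEL-28 in 3 of 15 (lowest 0.0361), and the PLAU interaction in 1 of 19. S100A10 in A375 with rapamycin changed to -0.0073 with library totals, and ranged from -0.0277 (without A375 etoposide replicate 1) to 0.0790 with single libraries left out. In SK-MEL-28 PLAU ranged from -0.417 to 0.0264 and ANXA2 from -0.0793 to 0.0181 with single libraries left out, both highest and above 0 without etoposide + rapamycin replicate 1. S100A10 between the lines with etoposide changed to 0.0091 with DESeq2, 0.0026 with median-of-ratios size factors, 0.0017 with library totals and 0.0005 with the filter of 1 count, and without single libraries to between -0.0708 and 0.0449 (0.0378, 0.0255 and 0.0081 among them).

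Without a fold threshold the members called numbered 4 in A375, 3 in SK-MEL-28 and 6 between the lines with rapamycin, and with a fold change over 1.5 the interaction kept 1, PLAT. A single fit of all libraries called 2 in A375, SERPINE2 and PLAU. PLAU entered that fit only through the libraries labelled SK-MEL-28, where it is high, so this is not counted as a result. In A375 alone it did not pass the filter, and with every gene of at least 1 count tested its adjusted p was 0.111. Leaving out each library gave 3 to 4 members for the interaction and 1, 0, 3 and 3 for the other comparisons. Over all genes the interaction called 1130 with edgeR and 1736 with DESeq2. Replicate numbers did not pair the libraries (correlations of deviations -0.03 to 0.021), and with the replicate block the members called numbered 1, 0, 3, 3 and 3, as without it. At 2 to 16 counts a library in A375, depth limits what can be said of PLAU.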
